A study of Mus musculus with 8 samples.

Results

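Jun, Cebpb, Stat5b and Elf4 encode 4 transcription factors whose activity is switched by extracellular signals, and their transcripts were followed in the kidney-forming region of Wt1 mutant and control mouse embryos. The members were the 4 genes and their 5 array probes, chosen by probe number (534427 for Jun, 640455 and 450590 for Cebpb, 491384 for Stat5b and 840469 for Elf4), of 311 genes and 317 probes that could be given a symbol and 33012 probes in all. The tissue was the metanephric region of E10.25 embryos, a stage which precedes the cell death known in Wt1 mutants according to the submitters. Mutant pools carried the Wt1 mutant allele of Kreidberg and colleagues, and the genotype entry reads WT1_KO. Control pools are called wild type in their titles but WT1_heterozygote in their genotype entry, so whether they carry a mutant allele cannot be settled from the labels. Both groups had 4 pools of 16 kidneys each on a mixed C57Bl6/DBA background. The array names of mutant pools 1 and 4 share a number, so whether they are separate pools or repeat arrays of the same pool cannot be settled. They are counted as separate here, and if they are not, the mutant group holds fewer than 4 pools. A pool averages several embryos, and the labels do not mention litters, so a p-value here reflects only how the pools varied, which may be technical. In such bulk tissue, fewer cells that express a gene and less RNA per cell cannot be told apart.

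WT1 is a zinc finger transcription factor without which the kidney does not form. Jun and Cebpb belong to the basic leucine zipper factors, which bind DNA as dimers: JUN is the central subunit of AP-1 and is phosphorylated by the JNK kinases, and C/EBP beta acts downstream of cytokine and Ras signalling in inflammation, fat and liver cells. STAT5B is a latent cytoplasmic factor that JAK kinases phosphorylate after growth hormone, prolactin or cytokine binding, and that then enters the nucleus. ELF4 is an ETS factor known from natural killer and other blood cells and from innate immunity. Much of the control of all 4 lies in the protein, which an array does not measure.

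The promoter stretches of the 4 genes are shown because WT1 acts at DNA and because JUN is known to act on its own promoter. They are the 250 bases ahead of the outermost start that the RefSeq promoter table lists in build GRCm38.p6, read 5′ to 3′ along the gene: chr4:95052223-95052472 on the minus strand for Jun, chr2:167688665-167688914 on the plus strand for Cebpb, chr11:100850582-100850831 on the minus strand for Stat5b and chrX:48463133-48463382 on the minus strand for Elf4. The table lists 2 starts each for Stat5b and Elf4. The Stat5b stretch lies inside the annotated gene (chr11:100780731-100859004), which begins further upstream, while the other 3 stretches abut the annotated gene. Capitals mark matches, on either strand, to the letters searched, which were TGANTCA (AP-1), TGACNTCA (a CRE-like AP-1 or ATF element), TTGCNNAA (C/EBP), TTCNNNGAA (STAT), GGAAG (the ETS core), GCGNGGGNG (shared by the EGR and WT1 zinc fingers) and CCAAT.
Jun: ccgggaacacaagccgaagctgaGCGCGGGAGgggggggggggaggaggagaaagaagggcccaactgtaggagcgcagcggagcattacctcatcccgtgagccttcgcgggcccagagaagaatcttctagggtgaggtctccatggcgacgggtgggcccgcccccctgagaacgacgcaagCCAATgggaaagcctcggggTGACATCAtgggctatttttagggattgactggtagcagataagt
Cebpb: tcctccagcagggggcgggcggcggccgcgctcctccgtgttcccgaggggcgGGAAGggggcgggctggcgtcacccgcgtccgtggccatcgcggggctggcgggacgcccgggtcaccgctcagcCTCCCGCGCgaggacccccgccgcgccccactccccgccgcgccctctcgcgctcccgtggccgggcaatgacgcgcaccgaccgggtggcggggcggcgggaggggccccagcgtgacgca
Stat5b: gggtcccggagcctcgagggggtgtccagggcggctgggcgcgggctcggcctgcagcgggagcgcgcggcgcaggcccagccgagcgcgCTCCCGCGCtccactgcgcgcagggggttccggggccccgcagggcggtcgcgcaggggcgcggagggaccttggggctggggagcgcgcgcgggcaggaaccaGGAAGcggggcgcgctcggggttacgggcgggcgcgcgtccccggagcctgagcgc
Elf4: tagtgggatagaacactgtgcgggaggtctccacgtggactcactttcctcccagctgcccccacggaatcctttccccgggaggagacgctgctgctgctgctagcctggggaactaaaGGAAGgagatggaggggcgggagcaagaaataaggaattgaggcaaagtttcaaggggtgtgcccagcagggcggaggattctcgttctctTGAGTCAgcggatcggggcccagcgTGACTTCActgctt

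The EGR and WT1 letters occurred once each in the Jun, Cebpb and Stat5b stretches and had no match in the Elf4 stretch, while 10.5% of 32851 promoter stretches of this length held them. Jun carried TGACATCA at position -45 from its start and CCAAT at position -65, against 7.49% of stretches with the CRE-like letters and 33.8% with CCAAT. Elf4 carried both TGAGTCA at position -39, AP-1 letters that 6.75% of stretches held, and the CRE-like TGACTTCA at position -14. The second listed start of Elf4 had 0 matches to any of the letters, and that of Stat5b had 0 to the EGR and WT1 letters and 1 to the ETS core. The ETS core, found in 64.1% of stretches, occurred once in each of the Cebpb, Stat5b and Elf4 stretches shown. No match to the C/EBP or STAT letters lay in any of the 4 stretches (9.56% and 7.02% of all). The Cebpb and Stat5b stretches were 81.6% and 82% G and C, above 61.2% in Jun and 58.4% in Elf4. The EGR and WT1 letters are all G or C apart from N. Their share was taken over all stretches and not over stretches of like G and C content, so it gives no measure of enrichment. A match is a description of letters and not a binding site.

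The arrays had a median linear signal between 681.6 and 2118.2, and 52.6% to 59.5% of probes were detected on each. With 4 arrays a group, precision is limited by their number. The first principal component set control pools 1 and 2 (42.2 and 67.5) apart from all other arrays (-21.5 to -13.1), and the median SD of a probe was 0.136 among mutant pools and 0.287 among control pools on the log2 scale. No probe could be assigned to Wt1, which leaves the genotype labels unchecked. Of the 12 markers of metanephric mesenchyme listed, 0 were matched to a probe, so the tissue label was not checked. The same held for the markers of the ureteric bud, endothelium, leukocytes, muscle and gut. With a symbol for only 317 of 33012 probes, Wt1 and these markers may still have probes that were not identified here.

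All 5 probes were measured in all 8 pools, with a signal-to-noise of 4.99 or more and a quality flag of 0 everywhere. None passed the threshold of an adjusted p of 0.05 in limma's comparison of mutant and control pools, where 0.46% of the 17594 tested probes did (81), so a count of 0 of 5 does not stand out. Elf4 alone had an unadjusted p under 0.05, as did 13.5% of tested probes. The groups overlapped at all 5 probes, while they did not at 10.6% of tested probes. The median difference (mutant minus control, in log2 signal) was 0.01 over the 5 probes and -0.06 over all tested probes. In size, their median difference was 0.10, against 0.20 over all tested probes.

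**Figure D1:**
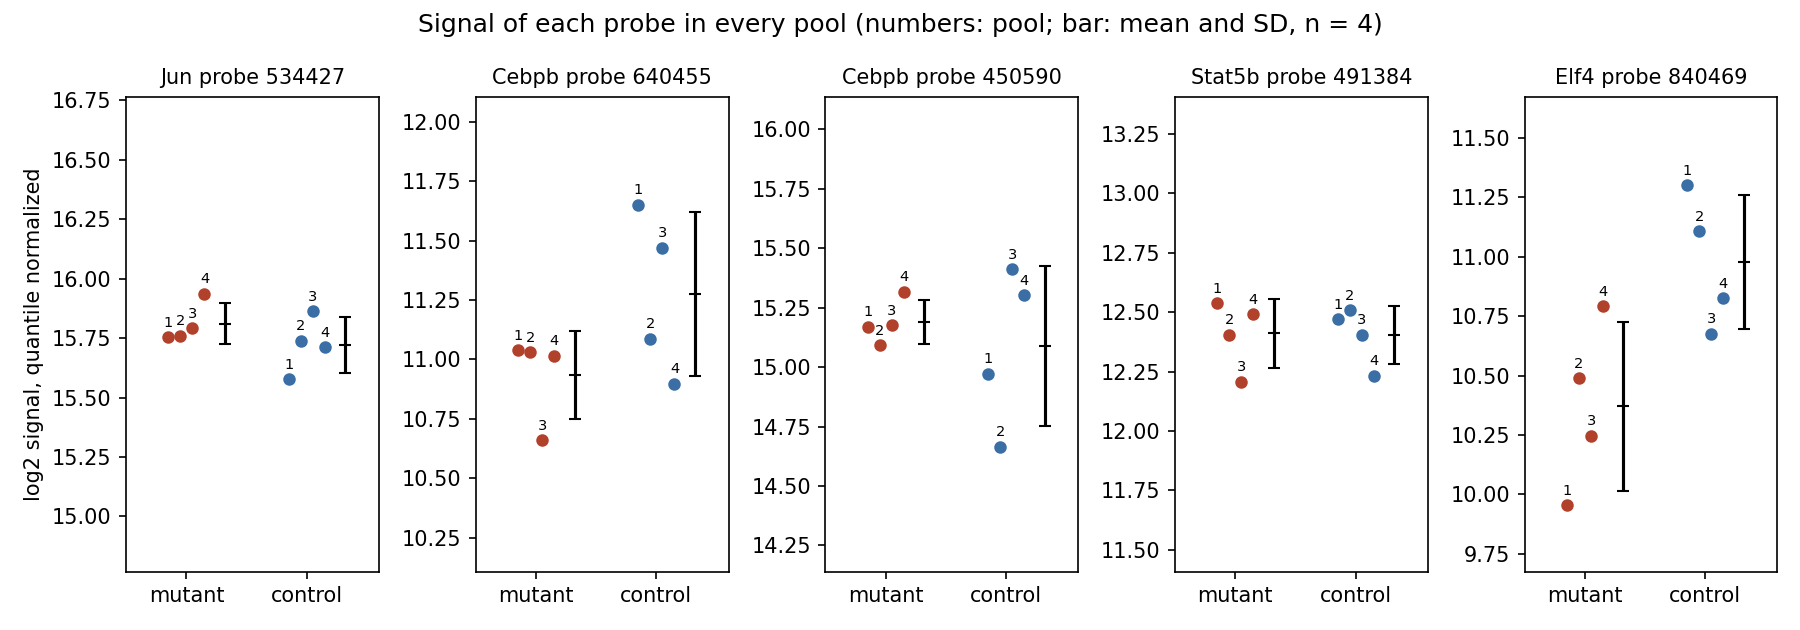
Each panel plots the quantile-normalized log2 signal of one probe (vertical axis, spanning 2 log2 units in every panel) in the 4 mutant and 4 control pools, numbered by pool, with the mean and SD (n = 4) beside them. Mutant and control pools overlap in each panel, and for Elf4 mutant pool 4, at 10.79, lies above control pool 3, at 10.68.

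Jun had a log2 signal of 15.75, 15.76, 15.79 and 15.94 in mutant pools 1 to 4, and of 15.58, 15.74, 15.86 and 15.71 in control pools 1 to 4. Mutant pool 4 was the highest of the 8 and control pool 1 the lowest, and the other pools were intermixed. The mean was 15.81 ± 0.09 in mutants and 15.72 ± 0.12 in controls (SD, n = 4 each), which differ by 0.09 with an SE of 0.11 (limma's adjusted p = 0.677). The 95% interval of the difference, -0.15 to 0.33, covers 0.899-fold to 1.26-fold. Among controls Jun was steady, with an SD below that of all but 9.66% of tested probes. The direction is not settled, since with each array centred on its median the difference was -0.01.

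The 2 probes of Cebpb carried the same transcript accession and gave differences of opposite sign. Probe 450590 measured 15.17, 15.09, 15.18 and 15.32 in mutant pools 1 to 4, and 14.97, 14.67, 15.41 and 15.30 in control pools 1 to 4. The mutants lay inside the range of the controls, which split into a lower pair (pools 1 and 2) and a higher pair (pools 3 and 4). Their means were 15.19 ± 0.09 in mutants and 15.09 ± 0.34 in controls (SD, n = 4 each), which differ by 0.10 (SE 0.17, 95% interval -0.29 to 0.49, limma's adjusted p = 0.776). The sign depended on which controls entered: it was -0.17 without control pools 1 and 2 (limma's adjusted p = 0.384, where 0.506% of tested probes were called) and 0.37 without control pools 3 and 4 (limma's adjusted p = 0.0765), a comparison in which 26% of tested probes were called. Within the larger of the array dates, which holds 3 mutant and 3 control pools and where 0.171% of tested probes were called, the difference was -0.03. For Jun it was 0.11 there, for Cebpb probe 640455 -0.44 and for Stat5b -0.00073.

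Probe 640455 of Cebpb gave log2 signals of 11.04, 11.03, 10.66 and 11.02 in mutant pools 1 to 4, and of 11.65, 11.09, 11.47 and 10.90 in control pools 1 to 4. Control pools 1 and 3 exceeded every mutant pool, control pool 2 did so by little, and control pool 4 lay among the mutants. The mean was 10.94 ± 0.18 in mutants and 11.28 ± 0.34 in controls (SD, n = 4 each), which differ by -0.34 (SE 0.19, 95% interval -0.76 to 0.08, limma's adjusted p = 0.403). Several of the 24 alternative settings tried changed only the filter, the variance model or a block, which leaves the difference at -0.34. This probe was lower in mutants under all 24, from -0.47 to -0.22, without passing the threshold in any. It lay nearer to background than the other probe, with a signal-to-noise of 7.73 to 13.1 in mutants and 7.15 to 42.2 in controls, against 45.8 to 71.2 in mutants and 46.9 to 63.4 in controls for probe 450590.

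Whether the 2 Cebpb probes gave different genotype differences was asked with the within-pool difference of the probes, 640455 minus 450590. It was -4.13, -4.06, -4.52 and -4.30 in mutant pools 1 to 4, and -3.32, -3.58, -3.94 and -4.40 in control pools 1 to 4. Control pools 1, 2 and 3 exceeded every mutant pool, while control pool 4 lay among them. The means differed by -0.44 (-4.25 ± 0.20 in mutants and -3.81 ± 0.47 in controls, SD, n = 4 each), which an exact two-sided permutation test over the pools did not separate from 0 (p = 0.143, where 0.0286 is the smallest it can give). The difference depended on the control pools: it was -0.64 without control pool 4 and -0.28 without control pool 1. Since control pool 4 was the only control among the mutants, leaving it out sets the groups fully apart. The exact two-sided permutation p is then 0.0286, the smallest possible, which the choice of pool fixes. Leaving out control pools 1 and 2 brought the difference to -0.08, and leaving out control pools 3 and 4 to -0.80. Among 929 other identifiers with 2 tested probes, the gap between the probes' differences had a median size of 0.20 and was at least as large as that of Cebpb in 21.3%. The signs were opposite in 38.9% of them. The probe sequences were not used here, so what separates the 2 probes was not tested.

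**Figure D2:**
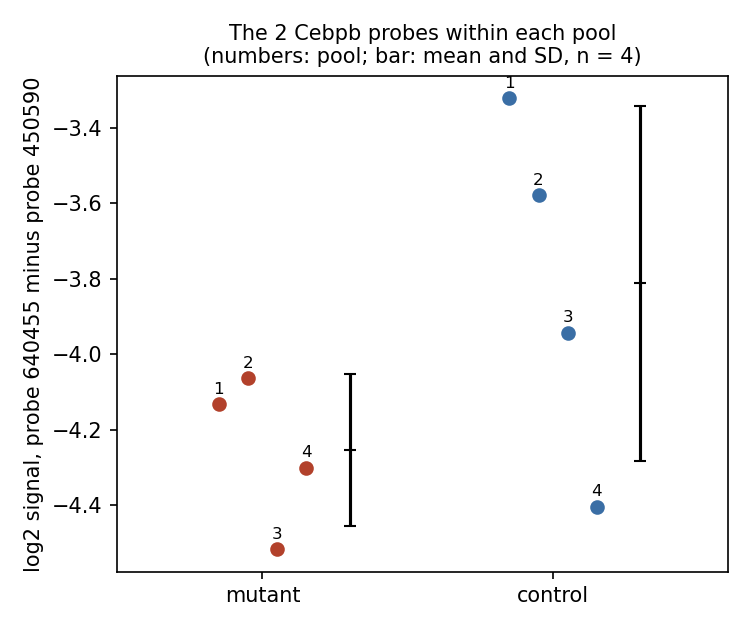
Points give the log2 signal of Cebpb probe 640455 minus that of probe 450590 in each mutant and control pool (vertical axis, log2 units), numbered by pool, with the mean and SD (n = 4). The 4 mutant pools lie between -4.52 and -4.06, and control pool 4, at -4.40, lies among them.

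Stat5b had log2 signals of 12.54, 12.41, 12.21 and 12.49 in mutant pools 1 to 4, and of 12.47, 12.51, 12.40 and 12.23 in control pools 1 to 4. Each genotype spanned nearly the same range. The means were 12.41 ± 0.15 in mutants and 12.40 ± 0.12 in controls (SD, n = 4 each). Their difference was 0.01 (SE 0.12, limma's adjusted p = 0.98), smaller in size than at 98.1% of tested probes, and its sign changed under 7 of 24 settings. Those of the 24 that changed only the filter, the variance model or a block could not change the sign. The 95% interval of the difference, -0.26 to 0.28, leaves room for 0.834-fold to 1.21-fold. Stat5a, the close paralog of Stat5b, was detected in 2 of 4 mutant and 2 of 4 control pools and was not tested. Its log2 signals, mostly near background, ran from 8.60 to 10.34 in mutants and from 8.20 to 10.31 in controls.

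Elf4 showed the widest separation of the 4 genes, with a 1.52-fold lower mean in mutants that did not pass the threshold. Its log2 signals were 9.954, 10.489, 10.247 and 10.791 in mutant pools 1 to 4, and 11.302, 11.107, 10.675 and 10.826 in control pools 1 to 4. Mutant pools 1, 2 and 3 lay below every control, and mutant pool 4 exceeded control pool 3 by 0.12. The mean was 10.37 ± 0.36 in mutants and 10.98 ± 0.28 in controls (SD, n = 4 each), which differ by -0.61 (SE 0.21, 95% interval -1.08 to -0.13, limma's adjusted p = 0.305). Before adjustment limma's p was 0.018. An exact two-sided permutation test over the pools gave p = 0.0571. A difference further below 0 was seen at 3.83% of tested probes, and 8.9% of tested probes were lower in mutants at an unadjusted p under 0.05. The signal-to-noise was 4.99 to 11.3 in mutants and 5.1 to 25.7 in controls, the lowest of the 5 probes.

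The difference at Elf4 kept its sign in each set of pools tried, and its size changed with the mutant and control pools that entered. It was -0.38 without control pools 1 and 2 (limma's adjusted p = 0.441) and -0.83 without control pools 3 and 4 (limma's adjusted p = 0.0442). That last comparison called 26% of all tested probes, and its only controls are the pools that stood apart. Within the larger array date the difference was -0.43 (limma's adjusted p = 0.56), while the smaller date holds only mutant pool 1, at 9.95, and control pool 2, at 11.11, and allows no test. Leaving out single pools gave values from -0.75 (without mutant pool 4) to -0.47 (without mutant pool 1), with limma's adjusted p from 0.212 to 0.554. Leaving out single control pools gave -0.71 to -0.50.

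Hba-a1 was the only marker of another cell type that was tested, since the neural marker Sox3 was detected in too few pools. Hba-a1, an alpha globin and the only 1 of 14 red cell markers matched to a probe, had log2 signals of 19.84, 20.00, 20.10 and 19.77 in mutant pools 1 to 4, and of 18.08, 18.66, 19.40 and 19.64 in control pools 1 to 4. The groups did not overlap, which held for 10.6% of tested probes. Their difference of 0.98 did not pass the threshold (limma's adjusted p = 0.279), and control pools 1 and 2, highest for Elf4, were lowest for Hba-a1. The difference at Hba-a1 was 0.41 without control pools 1 and 2 (limma's adjusted p = 0.194) and 1.56 without control pools 3 and 4 (limma's adjusted p = 0.00308). Only the latter passed the threshold, in a comparison that called 26% of tested probes. Among blood cells, where ELF4 is well studied, the 9 leukocyte markers listed had 0 matched to a probe. The part of blood content in the values of Elf4 was not tested.

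**Figure D3:**
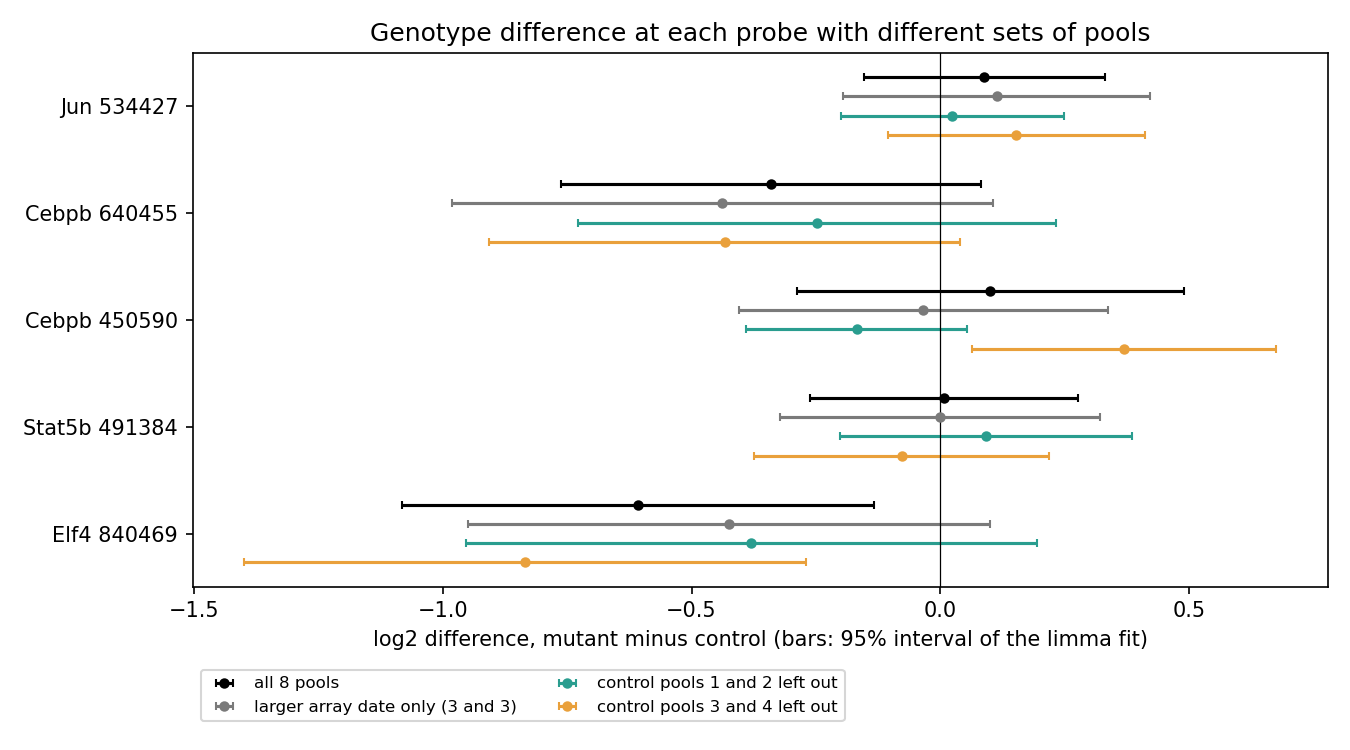
The horizontal axis gives the log2 difference, mutant minus control, of each probe with its 95% interval from the limma fit, for all 8 pools, for the larger array date, and with control pools 1 and 2 or 3 and 4 left out. Elf4 lies between -0.83 and -0.38, while Cebpb probe 450590 lies between -0.17 and 0.37 and crosses 0.

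**Figure D4:**
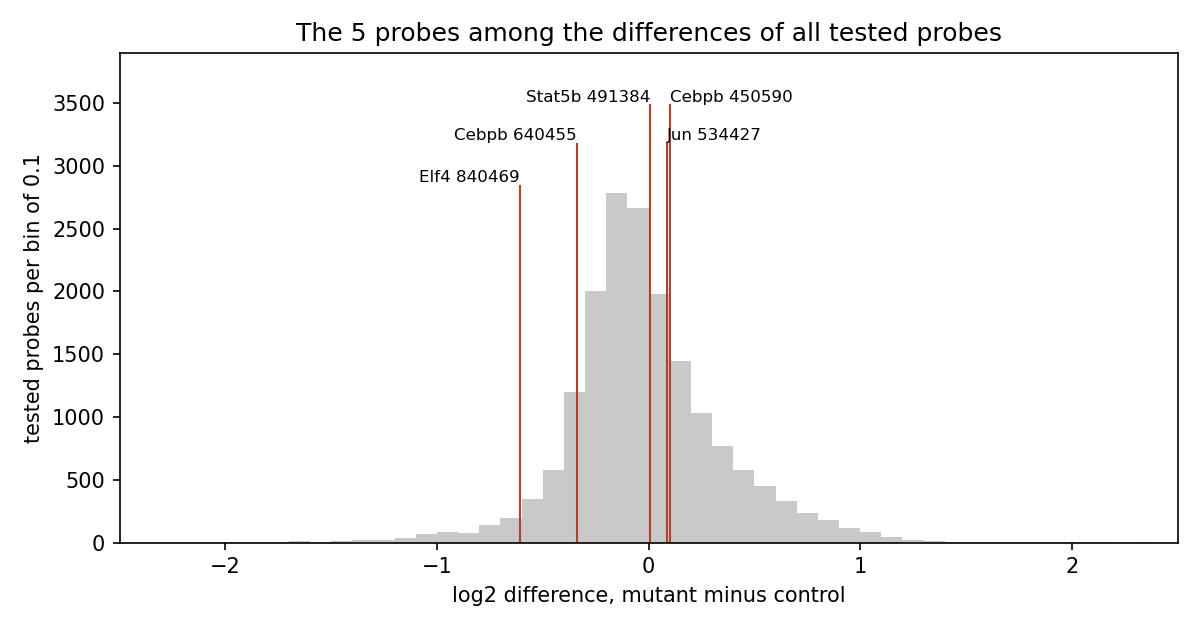
Grey bars count the 17594 tested probes (vertical axis) by log2 difference, mutant minus control (horizontal axis, drawn from -2.5 to 2.5), and red lines mark the 5 probes. Jun, Stat5b and Cebpb probe 450590 lie between 0.01 and 0.10, Cebpb probe 640455 at -0.34 and Elf4 at -0.61.

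Few other genes of these pathways could be read, since only 317 of 33012 probes were given a symbol. Most probes (27930) carried identifiers beginning with mCG. A listed gene without a match may therefore still have a probe on the array. Of the lists of related genes, the AP-1 family had 1 of 29 members matched to a probe (Jun itself), the C/EBP family 1 of 7 (Cebpb), the ETS family 1 of 26 (Elf4), the JAK-STAT genes 2 of 42 (Stat5a and Stat5b) and the immediate early genes 1 of 35 (Jun). The 32 JNK and stress kinase genes upstream of Jun and the 46 other signal-dependent factors had 0. Among developmental transcription factors, the SoxC factor Sox11 differed by -0.08, the forkhead repressor Foxn3 by -0.08, the zinc finger repressor Zbtb18 by -0.14 and the POU factor Pou3f3 by -0.43, with limma's adjusted p from 0.492 to 0.821. Lhx2 and Sox3 were each detected in 0 of 4 mutant pools and 1 of 4 control pools and were not tested. Across these lists 0 of 9 tested genes passed the threshold in limma's test, against 0.46% of tested probes. Of the 9, only Elf4 and Hba-a1 had an unadjusted p under 0.05, as did 13.5% of all tested probes.

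Profiles were compared by the root mean squared distance between log2 signals centred on each probe's mean, over 8 pools and 172 other tested genes with a symbol, as a description without a test. The signals were not scaled to a common spread. Probes that vary little therefore lie near each other whether or not they rise and fall together. Elf4 lay nearest to Psme3, a proteasome activator subunit, at 0.216, then to Nat8f2 (0.268) and Alkbh5, an RNA demethylase (0.276), against a median distance of 0.468. Cebpb, by its brighter probe 450590, lay nearest to Nt5m, a mitochondrial nucleotidase, at 0.0513, then to Tmem251 (0.0921) and the aldehyde dehydrogenase Aldh3a2 (0.0957), against a median of 0.338. For Jun the nearest were Zfp945 (0.0676), Unkl (0.083) and Rtl6 (0.111), with a median of 0.289. For Stat5b they were the peptidase Dpp9 (0.0845), Foxn3 (0.113) and the GTPase Rraga (0.114), with a median of 0.276. The distances of Rtl6, Foxn3 and Rraga were about the control SD of Jun and of Stat5b (0.12 each). For these genes a distance below the median need not mean a shared pattern. Among the members themselves, Jun and Stat5b had the smallest distance (0.151), and Elf4 and Cebpb probe 450590 the largest (0.539). Jun and Stat5b each had a control SD of 0.12, against a median of 0.287 over tested probes. Their small distance thus does not show that they moved together. The 2 probes of Cebpb lay 0.383 apart, and probe 450590 lay 0.188 from Jun and 0.285 from Stat5b. Probe 640455 varied more than Jun or Stat5b in each genotype (SD 0.18 in mutants and 0.34 in controls). The order of these distances therefore reflects spread as well as shape and does not rank likeness. Which genes lay nearest depended on the setting: over 15 alternatives the nearest gene was the one named above in 15 for Cebpb, 12 for Elf4, 9 for Jun and 8 for Stat5b, and all 3 genes stayed the nearest in 6 for Cebpb, 1 for Elf4, 4 for Jun and 0 for Stat5b.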

How the data were processed

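Amplified, digoxigenin-labelled cRNA from 8 pools was hybridised to one-colour Mouse Genome Survey arrays, per the labels' protocols. Per the file headers, each deposited file has a signal column (a linear intensity), a score of signal over noise, a quality flag and the signal after array normalization. The deposited table of the whole series repeats the array-normalized signal (264096 of 264096 cells). How the arrays were read and what the flags mean is not stated in the sources used here.

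Quantile normalization of the log2 signal ran over all 33012 probes (R 4.3.3, limma 3.58.1). Detection in a pool meant a signal-to-noise of 3 or more with a flag below 5000, and the 17594 probes detected in 3 or more of the 4 pools of either genotype were tested. The genotypes were compared with limma (lmFit and eBayes, two-sided). Its p-values were adjusted over all tested probes by Benjamini-Hochberg, with a threshold of 0.05. Single values were tested by exact permutation over the 70 arrangements of all pools, or over fewer where a pool was left out.

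Symbols and promoter sequences come from RefSeq (GRCm38.p6): 311 probes matched by transcript accession and 6 by synonym (Elf4 by synonym) and all 4 genes had a promoter entry. The files name no build.

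The members, lists, tests and alternatives were chosen with earlier results of these data known. The text names all members, every list gene matched to a probe and, per member, the 3 genes nearest in profile (the brightest probe of each gene). Pools have the numbers of their titles. These numbers were not taken to pair the pools, since same-numbered pools correlated in their deviations at -0.0867, 0.178, 0.00365 and 0.0778. The array date is the one carried in the array names. Alternatives changed the scaling, values, filter, variance model, array weights, date, replicate number and the pools used.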

Additional observations from a re-analysis of the deposited data

Results flagged for a closer look

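Cebpb probe 640455 had a log2 signal of 10.66 in mutant pool 3, while mutant pools 1, 2 and 4 measured 11.02 to 11.04. The gap to the nearest of them was 0.943 of the range of the group, past the limit that Dixon's test sets for 4 values. No other value in 22 groups of 4 pools did so, where about 1 group in 20 would by chance. Without mutant pool 3 the genotype difference at this probe was -0.25, against -0.34 with all pools, and it did not pass the threshold in either case (limma's adjusted p = 0.602 and 0.403).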

How the results depend on the processing

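Of the 5 probes, none passed the threshold in any of 24 alternatives except Elf4 without control pools 3 and 4 (-0.83, limma's adjusted p = 0.0442). Elf4 (-0.83 to -0.38) and Cebpb probe 640455 (-0.47 to -0.22) kept their sign throughout. Alternatives that changed only the filter, the variance model, the date block or the replicate block left every difference as it was, so they could not change a sign. With each array centred on its median, Jun turned to -0.012, Cebpb probe 450590 to -0.015 and Stat5b to -0.054. Probe 450590 also turned with array weights (-0.10), within the larger date (-0.034) and without control pools 1 and 2 (-0.17), and Stat5b within the larger date (-0.00073), with mutant pools 1 and 4 averaged, whose array names share a number (-0.028), and without control pools 3 and 4 (-0.078). With 1 pool left out, Jun ran from 0.040 to 0.14, probe 450590 from -0.040 (without control pool 2) to 0.21, Stat5b from -0.050 to 0.075 and the gap between the Cebpb probes from -0.64 to -0.28. Sox11 turned to 0.049 with array weights and 0.067 without control pools 1 and 2 (-0.15 to 0.050 with 1 pool left out), and Foxn3 to 0.012 without control pools 1 and 2. Pou3f3 ran from -0.86 (without control pools 3 and 4) to -0.0067 (without control pools 1 and 2) and was -0.23 without mutant pool 2, Zbtb18 ran from -0.28 to -0.011 across the same sets and was -0.082 without control pool 2, and Hba-a1 was 0.57 with array weights. The cause was not tested. Over 15 alternatives, the distance of Stat5b ran from 0.0592 to 0.140 for Dpp9 and from 0.0546 to 0.162 for Rraga, that of Jun to Rtl6 from 0.0664 to 0.130, that between Jun and Stat5b from 0.115 to 0.186, and that between Elf4 and Cebpb probe 450590 from 0.257 to 0.611.

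The count of 81 called probes was 30 within the larger date, 30 with dim probes kept, 36 with mutant pools 1 and 4 averaged, 285 with array weights, 4566 without control pools 3 and 4 and 38 to 65 with 1 pool left out. With the replicate block it was 30, and limma's adjusted p was 0.741 for Jun, 0.445 and 0.758 for Cebpb probes 640455 and 450590, 0.984 for Stat5b and 0.397 for Elf4, so no call of a member changed. Of 4 mutant pools, 1 correlated best with the control of its own number. Elf4 lay nearest to background among the members, and Pou3f3, Stat5a, Lhx2 and Sox3 lay nearer still, which limits what these arrays resolve for them.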
